A study of Mus musculus with 12 samples.

Results

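RNA from donor bone marrow progenitors labelled as lacking Tet2 was compared with RNA from progenitors labelled wild type (WT), in mice whose Id1 gene was intact by label. The comparison used 6 of the 12 libraries of the study: 3 labelled Tet2KO (the label reads Tet2 KO) and 3 labelled WT. All 6 were made from donor cells that carried the receptor Kit and no lineage markers (Lin- ckit+, here LK cells), sorted from the bone marrow of mice that had received competitive bone marrow transplants. The other 6 libraries came from donor cells with the labels Id1 KO (Id1KO) and Tet2 KO + Id1KO (dKO), and gave the same contrast where the label says that Id1 is lost as well. The design addresses how the transcripts of progenitors differ when Tet2 is lost, and if Id1 bears on it. The age of the mice, the kind of allele and the number of recipients behind a library are not given in the sources used here. Titles give the 3 libraries of a genotype 1 sample number with a suffix on 2 of them, so they may be repeats of 1 cell sample. The p-values below measure only the spread between these libraries, which may be technical.

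Tet2 encodes a dioxygenase that oxidises 5-methylcytosine, the first step in removing methyl groups from DNA at enhancers and promoters. Its loss in blood stem cells is a frequent cause of clonal hematopoiesis, in which the progeny of a mutant stem cell takes over part of blood formation, and it shifts differentiation towards myeloid cells and away from red cells. LK cells are mostly committed progenitors of red cells, platelets, granulocytes and monocytes, with a minority of stem and multipotent cells.

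Total estimated counts ran from 19024905 to 19959183 in the libraries labelled WT and from 16176673 to 18386991 in those labelled Tet2KO, and 14346 of 55450 genes had enough counts for testing. Values are CPM (counts scaled to a common library size) after TMM scaling, a correction for library composition, unless they are called log2 fold changes. Neither targeted gene was lower where its label says it is lost, so genotype names below are labels. Tet2 (ENSMUSG00000040943.12, chromosome 3, 133463679 to 133545139) stood at 98.6, 97.6 and 102 CPM in the libraries labelled WT and 127, 132 and 130.3 CPM in those labelled Tet2KO, a log2 fold change of 0.39 ± 0.03 (SE). The counts cover the whole gene, so they do not show from which of its 14 merged exons the reads came. Id1 (ENSMUSG00000042745.9, chromosome 2, 152736251 to 152737410) stood at 1.76, 1.24 and 1.41 CPM in the libraries labelled WT and 4.35, 3.63 and 3.61 CPM in those labelled Tet2KO, and at 3.84, 3.69 and 4.35 CPM in those labelled Id1KO and 4.18, 3.35 and 4.25 in those labelled dKO, all of them few counts. Its log2 fold change in Tet2KO against WT was 1.39, adjusted p 3.66e-06 by edgeR's quasi-likelihood test. That call was lost when the libraries of each genotype were summed. Kit, the receptor used for the sort, was abundant in each library, at 340.3, 336 and 337 CPM in the libraries labelled WT and 355, 364 and 377 CPM in those labelled Tet2KO. Some markers of mature lymphocytes, granulocytes and stroma were near absent. Cd3e and Lepr had at most 1 and 2 counts in a library, Ly6g at most 2, and Col3a1 and Dcn none. Other members of their lists had enough counts for testing. These were 27 of 33 lymphoid genes, 23 of 27 genes of secondary granules and maturation and 5 of 17 stromal and endothelial markers. The Y chromosome genes Ddx3y, Uty, Kdm5d and Eif2s3y rose and Xist, expressed from the inactive X chromosome, fell from 262 to 10.8 CPM, so transcripts that differ between the sexes also differed between the labelled groups. The part of sex in other results was not tested.

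At an adjusted p under 0.05 by edgeR's quasi-likelihood test, 4699 genes were called between the Tet2KO and WT labels, which is 32.8% of those tested, with 16.6% higher and 16.2% lower in Tet2KO. Counts of members below are to be read against these shares. Most differences were small. The libraries of a genotype varied by a biological coefficient of variation of only 0.0305, a spread that may be technical. Among the genes called, 2646 differed by less than 1.2-fold, 709 by 0.5 to 1 on the log2 scale, and 261 by more than 1 (139 higher, 122 lower). Against a 1.2-fold change itself (edgeR's glmTreat), 769 genes were called. When the libraries of each genotype were summed to 1 and both Id1 backgrounds were fitted with a common Tet2 effect, 232 were, 165 higher and 67 lower. That fit has 1 residual degree of freedom, and most calls named below are lost in it. Of all genes tested, 46% had no overlap between the 3 and 3 libraries. Whether the authors counted by strand is not given in the sources used here, so values of genes that overlap exons of another tested gene are uncertain: Acss2, Ccnd1, Cct6a, Cdk6, Cpox, Csf1r, Dusp1, Fancc, Gas5, Hars, Hmga2, Hoxa7, Hspd1, Hspe1, Irf5, Jak3, Jun, Kmt2e, Mbd5, Meis1, Pfkm, Pkm, Prdx2, Psip1, Rfc4, Runx2, Satb1, Sh2b3, Slc25a37, Snhg1, Snhg12, Sptb, Srrm2, Srsf2, Stat3, Tcp1, Xist and Zeb2. Genes that share at least 300 bp with another tested gene are uncertain too: Csf2rb, Csf2rb2, Cycs, Hba-a1, Hba-a2, Hbb-bs, Hbb-bt, Hsp90aa1, Hspa1a, Hspa1b, Hspa8, Hspd1, Kcnq1ot1, Mgl2, Npm1, Odc1, Pkm, Slc25a37, Srsf3 and U2af1.

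The genes that moved most were of many kinds, and several are transcripts of membrane and matrix proteins. Ahnak (ENSMUSG00000069833.13, chromosome 19, 8989284 to 9076914), which encodes a giant scaffold protein under the cell membrane, stood at 114, 111 and 109 CPM in the libraries labelled WT and 221, 222 and 223 CPM in those labelled Tet2KO. The groups were far apart, with a log2 fold change of 0.997 ± 0.028 (SE), adjusted p 8.31e-16. Myof, a membrane repair protein, had a log2 fold change of 1.24 ± 0.14, Sdc2, a heparan sulfate proteoglycan, one of 1.09 ± 0.11, and S100a4, a calcium-binding protein of motile cells, one of 1.07 ± 0.13. Lbp, the lipopolysaccharide-binding protein, rose from 47.6 to 80.2 CPM. In the other direction Ctse (ENSMUSG00000004552.16, chromosome 1, 131638306 to 131675505), the protease cathepsin E of red cell precursors and antigen-presenting cells, stood at 172, 180.5 and 176 CPM in the libraries labelled WT and 51.96, 52.9 and 53.3 CPM in those labelled Tet2KO. The log2 fold change of -1.74 ± 0.032 had an adjusted p of 2.81e-19. Spon2 fell by 1.76 on the log2 scale and Ptpn13, a tyrosine phosphatase, by 2.08. C1qtnf12, a secreted protein of the C1q family, fell from 116 to 61.2 CPM, and Ntn4, a laminin-related netrin, from 5.83 to 1.91.

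**Figure D1:**
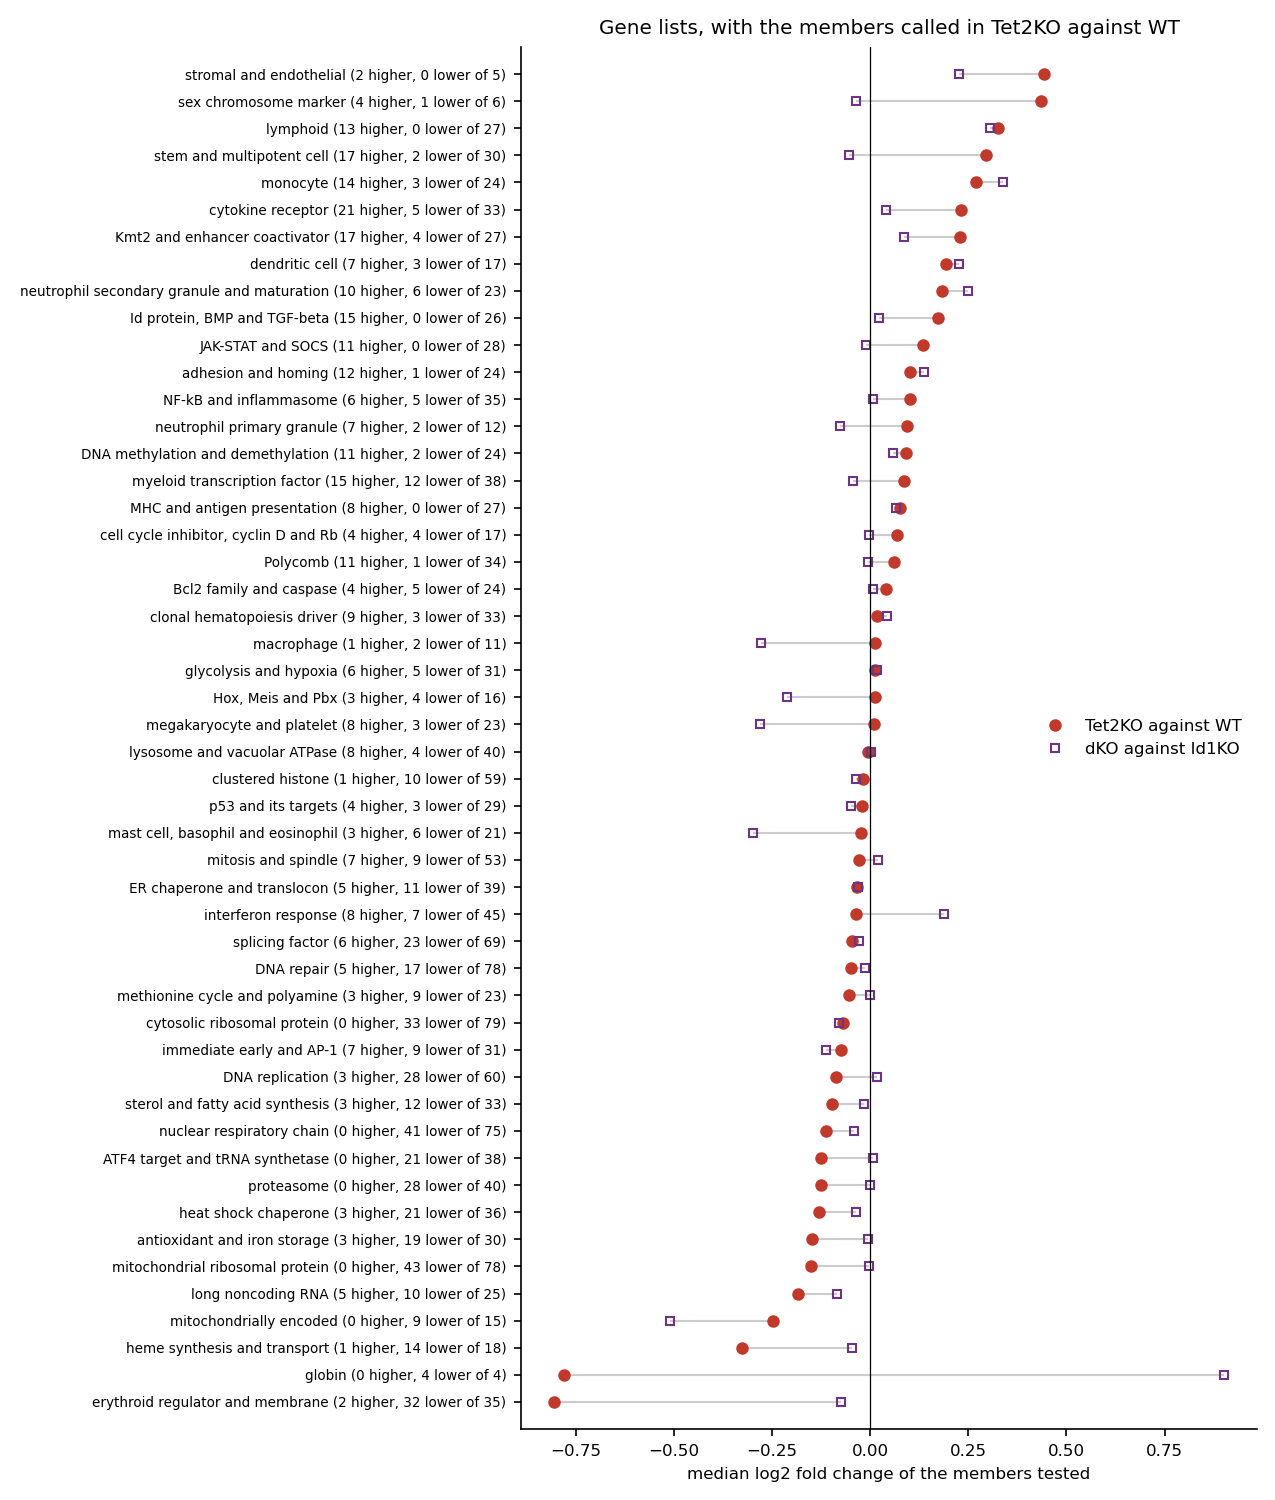
Median log2 fold change of the tested members of each of 50 gene lists in Tet2KO against WT (filled circles) and in dKO against Id1KO (open squares), with the counts of members called in Tet2KO against WT beside the name of each list. Red cell lists lie lowest among the circles, with medians of -0.80 and -0.78, and their squares lie at -0.075 and 0.90.

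Genes of the red cell lineage fell together. Of 35 tested regulators and membrane genes of red cell precursors, 32 fell and 2 rose, with a median log2 fold change of -0.80 beside -0.00282 over all genes tested. Their summed level was 3169 to 3214 CPM in the libraries labelled WT and 2107 to 2119 CPM in those labelled Tet2KO. Beyond a 1.2-fold change 23 of the 32 were called, and in the fit with summed libraries 1 was. In bulk RNA, fewer cells of a type and less RNA per cell cannot be told apart.

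Transcription factors of the lineage fell too. Of those below, Gfi1b was counted with platelet genes and Gata2 with mast cell genes. Gata1 (ENSMUSG00000031162.14, chromosome X, 7959260 to 7978071), the master factor of red cells and megakaryocytes, stood at 51.6, 52.1 and 51.01 CPM in the libraries labelled WT and 29.7, 31.2 and 32.3 CPM in those labelled Tet2KO. Klf1 (ENSMUSG00000054191.8, chromosome 8, 84901928 to 84905291), which drives globin and membrane genes, stood at 68.4, 73.4 and 71.4 CPM in the libraries labelled WT and 41.5, 40.3 and 40.3 CPM in those labelled Tet2KO. In both genes each Tet2KO library lay below each WT library. The log2 fold changes were -0.73 ± 0.043 (SE) for Gata1 and -0.80 ± 0.041 for Klf1, with adjusted p of 1.07e-10 and 1.27e-11. Gfi1b, a repressor needed for red cells and platelets, fell by 0.89. Factors that stem and progenitor cells share moved less: Tal1 fell by 0.24, Zfpm1 (the Gata1 partner Fog1) by 0.36 and Gata2 by 0.24.

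Receptor and surface genes of the lineage fell as well. Epor (ENSMUSG00000006235.6, chromosome 9, 21958897 to 21963506), the erythropoietin receptor, stood at 27.4, 25.2 and 26.05 CPM in the libraries labelled WT and 13.6, 14.0 and 14.3 CPM in those labelled Tet2KO, with a log2 fold change of -0.91 ± 0.063 (SE) and an adjusted p of 1.24e-09. Rhd and Rhag, the Rh blood group proteins, fell by 1.02 and 0.90, the Kell antigen gene Kel by 0.91, and Ermap, the Scianna blood group protein, by 0.92. The spectrin gene Sptb fell by 1.004, ankyrin (Ank1) by 0.82 and adducin (Add2) by 0.96, all parts of the skeleton under the red cell membrane. Transferrin receptor 1 (Tfrc), which dividing cells of all kinds use to take up iron, fell by only 0.31. Xpo7, a nuclear exporter that acts late in red cell maturation, rose by 0.29.

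Carbonic anhydrases were the most abundant members. Car1 (ENSMUSG00000027556.15, chromosome 3, 14766216 to 14808368) stood at 480.2, 514 and 485 CPM in the libraries labelled WT and 273, 267 and 271 CPM in those labelled Tet2KO, and Car2 (ENSMUSG00000027562.12, chromosome 3, 14886273 to 14900770) at 482, 495 and 485 CPM in the libraries labelled WT and 272, 271 and 273 CPM in those labelled Tet2KO. The log2 fold changes were -0.87 ± 0.028 (SE) and -0.84 ± 0.024, with adjusted p of 9.45e-15 and 9.96e-16. Globin itself was scarce, as it is before terminal maturation: the 4 adult globin genes together stood at 29.6 to 30.7 CPM in the libraries labelled WT and 17.02 to 18.4 in those labelled Tet2KO. All 4 (Hba-a1, Hba-a2, Hbb-bs and Hbb-bt) fell. Hba-a1 and Hba-a2 are 99.8% identical over 538 bp, so their reads cannot be assigned with certainty. Hbb-bt and Hbb-bs are 100% identical over 323 bp, so the same holds for reads from that stretch.

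Promoters of 3 of these genes are shown because they hold the letters AGATAA, the core of the site that Gata1 binds, in the 250 bases before the start of transcription (RefSeq, GRCm38.p6). Capitals mark AGATAA or its reverse complement TTATCT and, in Kel, TGANTCA, the core of sites for the factors Nfe2 and AP-1, and the 2 motifs do not overlap. The Epor window is chr9:21963577-21963826 on the minus strand, the Kel window chr6:41704326-41704575 on the minus strand and the Rhd window chr4:134864286-134864535 on the plus strand.
Epor: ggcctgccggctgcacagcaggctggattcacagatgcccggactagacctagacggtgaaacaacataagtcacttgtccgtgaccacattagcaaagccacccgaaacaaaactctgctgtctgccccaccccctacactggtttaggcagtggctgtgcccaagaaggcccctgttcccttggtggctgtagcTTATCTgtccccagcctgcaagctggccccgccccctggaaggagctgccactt
Kel: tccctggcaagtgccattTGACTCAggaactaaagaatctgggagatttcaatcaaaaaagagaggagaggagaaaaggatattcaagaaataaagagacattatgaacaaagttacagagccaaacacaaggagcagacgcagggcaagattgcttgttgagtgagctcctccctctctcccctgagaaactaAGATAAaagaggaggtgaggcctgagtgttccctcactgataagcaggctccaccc
Rhd: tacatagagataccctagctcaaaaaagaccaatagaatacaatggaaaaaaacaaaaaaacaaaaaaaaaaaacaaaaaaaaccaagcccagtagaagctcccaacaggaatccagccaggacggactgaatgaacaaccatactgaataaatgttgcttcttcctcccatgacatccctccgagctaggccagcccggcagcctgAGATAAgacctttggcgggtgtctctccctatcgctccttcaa
Read on both strands, AGATAA was in such a window of 8 of the 23 red cell genes that fell and have an entry (34.8%), or 9 of 33 promoters (27.3%). Overlapping windows of Sphk1 hold the same site, so the 9 count it more than once. AGATAA was in a window of 7.6% of all tested genes with an entry. By promoter it was in 6.29% of those of all genes tested and 9.99% of all 32851 promoters in the table. None of the 15 promoters of heme genes that fell held it.

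Enzymes and transporters of heme synthesis fell with the membrane genes but by less. Of 18 tested, 14 fell and 1 rose, with a median log2 fold change of -0.33; beyond 1.2-fold 7 were called, and in the fit with summed libraries none. Alas1, the housekeeping form of the first enzyme, was the most abundant and fell by only 0.16. Later steps fell further: Cpox went from 86.6 to 55.8 CPM (log2 fold change -0.63 ± 0.036, SE) and Fech, which inserts the iron, from 63.98 to 48.4 (-0.40 ± 0.045). Blvrb, which reduces biliverdin and flavins in red cells, fell by 0.75. The gene that rose, the mitochondrial iron importer Slc25a37, did so by 0.12, a call lost without WT replicate 2, Tet2KO replicate 1 or Tet2KO replicate 2 (edgeR adjusted p up to 0.0982).

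**Figure D2:**
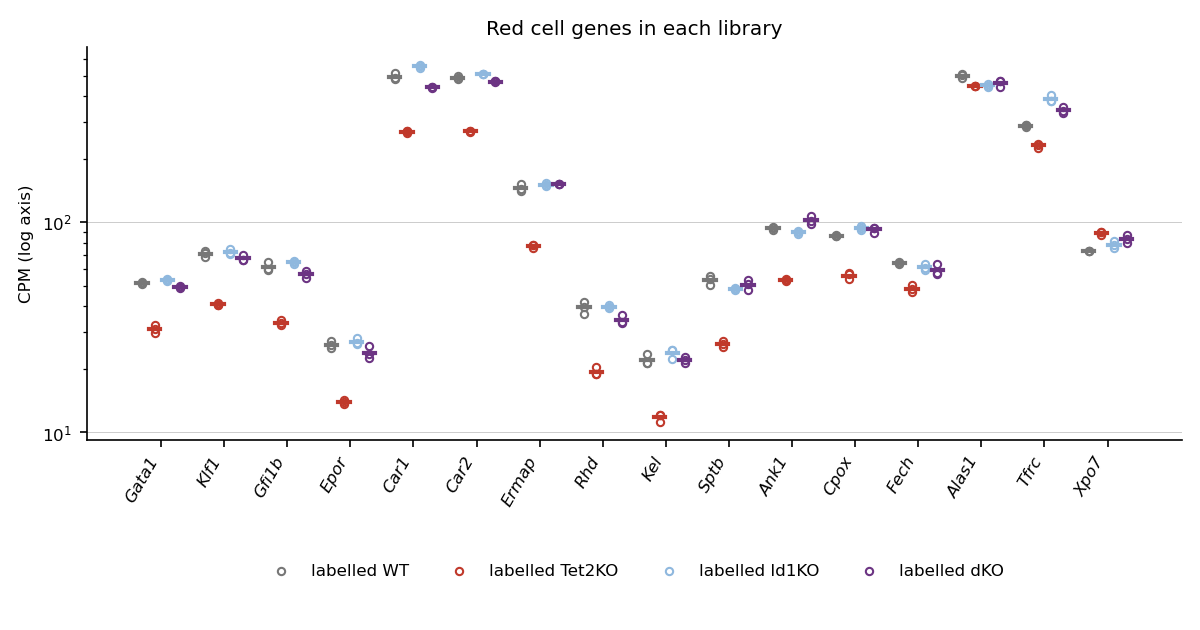
CPM (log axis) of 16 red cell genes in each library labelled WT, Tet2KO, Id1KO and dKO; circles are libraries and bars are means of 3. For all genes but Alas1 and Xpo7 the 3 libraries labelled Tet2KO lie below all 9 others, and Xpo7 is higher in them than in WT.

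Redox and iron genes moved in the same direction. Of 30 tested, 19 fell and 3 rose, with a median of -0.15, and 5 of the 19 were called beyond 1.2-fold. The count of 3 was 1 without WT replicate 1. Mt2, a metallothionein that binds zinc, stood at 25.1, 25.4 and 25.5 CPM in the libraries labelled WT and 14.1, 12.7 and 14.0 CPM in those labelled Tet2KO, and the groups did not overlap. Its log2 fold change was -0.90 ± 0.064 (SE), adjusted p 1.85e-09. The quinone reductase Nqo1 fell by 0.88, Srxn1, which repairs peroxiredoxins, by 0.66, and the iron-sulfur cluster protein Glrx5 by 0.43. Prdx2, the main peroxidase of red cells, went from 248 to 195 CPM. Ireb2, which binds the iron-responsive elements of transcripts, rose by 0.25.

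Genes of stem and multipotent cells moved the other way. Of 30 tested, 17 rose and 2 fell, with a median of 0.29, 8 of the 17 were called beyond 1.2-fold, and 2 in the fit with summed libraries. Hmga2 (ENSMUSG00000056758.14, chromosome 10, 120361275 to 120476469), a chromatin protein of fetal and self-renewing stem cells, stood at 2.28, 2.17 and 2.38 CPM in the libraries labelled WT and 6.56, 5.90 and 6.14 CPM in those labelled Tet2KO. Its log2 fold change was 1.44 ± 0.15 (SE), adjusted p 2.99e-07. Tek, the angiopoietin receptor of quiescent stem cells, rose by 0.77 and its relative Tie1 by 0.53. Meis1, a homeobox factor of stem cells, stood at 47.3, 47.2 and 43.5 CPM in the libraries labelled WT and 61.9, 59.03 and 58.3 CPM in those labelled Tet2KO, and Hlf, a transcription factor of stem cells, rose by 0.31. Mllt3, which maintains stem cells in culture, fell by 0.41. Mecom, a factor of the most primitive cells, was at -0.27 (log2, adjusted p 0.151), and Cd34, which marks early progenitors, rose by only 0.088.

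Members of the Hoxa cluster fell instead. Hoxa9 (ENSMUSG00000038227.15, chromosome 6, 52223100 to 52231089), a homeobox factor of progenitors and myeloid leukemia, stood at 23.9, 24.4 and 22.97 CPM in the libraries labelled WT and 14.6, 14.6 and 12.3 CPM in those labelled Tet2KO. Each library labelled Tet2KO lay below each labelled WT, and the log2 fold change was -0.78 ± 0.065 (SE), adjusted p 1.87e-08. Its neighbours Hoxa7, Hoxa10 and Hoxa4 fell by 0.47, 1.03 and 1.16. Hoxa10 and Hoxa4 had means of only 0.997 and 1.05 CPM in WT, and the call of Hoxa10 was lost in 4 of the fits that left out 1 library: without WT replicate 2, WT replicate 3, Tet2KO replicate 1 or Tet2KO replicate 2 (edgeR adjusted p up to 0.158). Of the 16 tested genes of the Hox, Meis and Pbx families these were the 4 that fell, and 3 rose, Meis1 and Hoxb4 among them. Hoxa9 also fell in dKO against Id1KO, with a log2 fold change of -0.92.

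Platelet genes did not move as one. Of 23 tested 8 rose and 3 fell, with a median of 0.009. Itgb3, a subunit of the fibrinogen receptor, rose by 0.25 and Selp, an adhesion receptor of platelets, by 0.33. Thbs1, an adhesive protein of platelet granules, fell by 0.99, from 8.62 to 4.36 CPM, and Gp5 by 0.53. Markers of mast cells, basophils and eosinophils were split as well, with 3 of 21 higher and 6 lower. Prg2 and Epx, granule proteins of eosinophils, fell by 0.29 and 0.33, and Prss34, a protease of basophils, rose by 0.25.

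Granulocyte genes were mixed, with more members higher than lower. The primary granule proteins are among the most abundant transcripts of these cells: Mpo (ENSMUSG00000009350.13, chromosome 11, 87793581 to 87804413), myeloperoxidase, stood at 9917, 9889 and 9928 CPM in the libraries labelled WT and 11090.0, 11061 and 11272 CPM in those labelled Tet2KO. Its log2 fold change was 0.17 ± 0.034 (SE), adjusted p 0.00063. Of 12 primary granule genes 7 rose and 2 fell, none beyond 1.2-fold by test. Among 23 genes of secondary granules and maturation 10 rose and 6 fell. Anxa1 (ENSMUSG00000024659.15, chromosome 19, 20373428 to 20390944), annexin A1, stood at 98.2, 98.9 and 100.3 CPM in the libraries labelled WT and 173, 167 and 179 CPM in those labelled Tet2KO, a log2 fold change of 0.81 ± 0.03, adjusted p 7.38e-14. Cybb, the catalytic subunit of the phagocyte oxidase, rose by 0.61, the alarmins S100a8 and S100a9 by 0.39 and 0.71, and the ficolin gene Fcnb by 0.82. Padi4, which modifies histones in neutrophil traps, fell by 0.43 and Mcemp1 by 0.64. The count of 6 that fell was 3 without Tet2KO replicate 3.

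Most monocyte genes that were called rose. Of 24 tested, 14 rose and 3 fell, with a median of 0.27, 6 were called higher beyond 1.2-fold, and 5 in the fit with summed libraries. Ly6c2 (ENSMUSG00000022584.14, chromosome 15, 75108158 to 75111970), the surface marker of classical monocytes, stood at 525, 551 and 556 CPM in the libraries labelled WT and 755, 787 and 775 CPM in those labelled Tet2KO. The groups did not overlap, and the log2 fold change was 0.51 ± 0.028 (SE), adjusted p 3.6e-11. Fn1 (fibronectin) rose by 0.76, Pld4, an endosomal nuclease, by 0.62, Mpeg1 by 0.42, and Csf1r, the receptor for the main monocyte growth factor, by 0.28. F13a1, a clotting factor subunit, fell by 0.11 and the chemokine receptor Cx3cr1 by 0.31. The factor Irf8 was at 0.039 (log2, adjusted p 0.301).

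Dendritic cell genes were divided. Of 17 tested 7 rose and 3 fell: Kmo, a kynurenine enzyme, rose by 0.62 and Runx2, a factor of plasmacytoid cells, by 0.44, whereas the lectin gene Mgl2, which shares 704 bp with Clec10a, fell by 1.51 and Zbtb46, a factor of classical dendritic cells that red cell precursors also express, by 0.72.

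Of the genes of lymphoid priming, the members called all rose. Of 27 tested 13 rose and none fell, with a median of 0.33; 2 were called beyond 1.2-fold. Notch1, the receptor that directs cells to the T lineage, stood at 102, 99.97 and 105 CPM in the libraries labelled WT and 136, 137 and 139.8 CPM in those labelled Tet2KO, a log2 fold change of 0.43 ± 0.037 (SE). Bach2, a repressor that favours lymphoid fate, rose by 0.94 from 4.56 CPM, Satb1 by 0.36, and Flt3, the receptor of lymphoid-primed multipotent cells, went from 68.9 to 99.4 CPM. Ebf1 and Pax5, factors of B cells, rose by 0.68 and 0.94 from only 1.68 and 1.08 CPM.

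The macrophage list held 11 tested genes, with summed levels of 92.2 to 100.05 CPM in the libraries labelled WT and 63.8 to 74.2 in those labelled Tet2KO. Vcam1 and the iron exporter Slc40a1, genes that macrophages of red cell islands express, fell by 0.78 and 0.73, and Adgre1 (F4/80) rose by 0.71. Red cell precursors themselves also express Slc40a1. Cd163, C1qa and other members were not called, and the part of macrophage RNA in the red cell result was not tested. Of 17 stromal and endothelial markers 5 had enough counts, and 2 rose, among them Runx2, which is on the dendritic cell list too. The summed level of the 5 was 60.5 to 64.8 CPM in the libraries labelled WT and 86.4 to 91.6 in those labelled Tet2KO. The part of stromal RNA in other results was not tested.

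**Figure D3:**
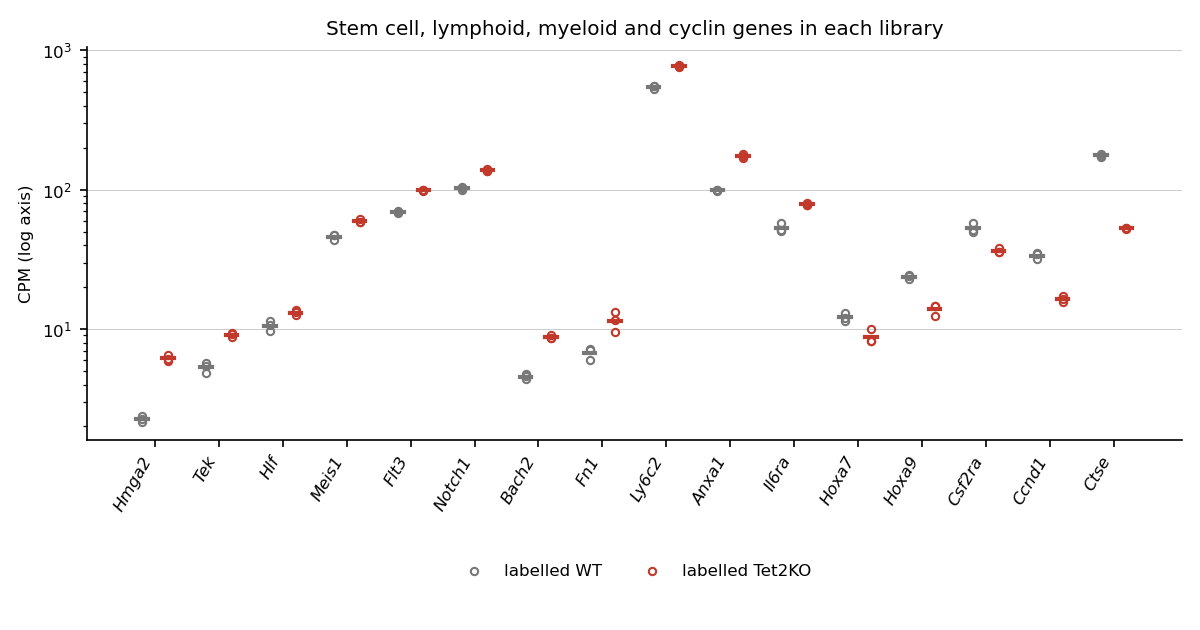
CPM (log axis) of 16 genes of stem cells, lymphoid and myeloid progenitors and the cell cycle in each library labelled WT (grey) and Tet2KO (red); circles are libraries and bars are means of 3. From Hmga2 to Il6ra the Tet2KO libraries lie above the WT libraries, and from Hoxa7 to Ctse they lie below.

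Among myeloid transcription factors, 15 of 38 rose and 12 fell. Changes in the factors that define the granulocyte and monocyte branch were small: Cebpa rose by 0.12, Runx1 by 0.24 and Zeb2 by 0.28. Irf5, which acts in inflammatory macrophages, rose by 0.54, from 22.7 to 32.96 CPM. Myb, a factor of dividing progenitors, fell by 0.10. Klf2 (ENSMUSG00000055148.7, chromosome 8, 72319033 to 72321656), a factor of quiescence and adhesion, stood at 37.3, 33.9 and 35.02 CPM in the libraries labelled WT and 22.2, 21.03 and 21.7 CPM in those labelled Tet2KO. Its log2 fold change was -0.71 ± 0.063 (SE), adjusted p 4.74e-08, and its relative Klf6 fell by 0.37.

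Receptors for cytokines rose in number. Of 33 tested 21 rose and 5 fell, with a median of 0.23; beyond 1.2-fold 6 and 3 were called. Il6ra (ENSMUSG00000027947.11, chromosome 3, 89864059 to 89913196), the interleukin 6 receptor, stood at 57.2, 50.5 and 51.1 CPM in the libraries labelled WT and 77.1, 77.6 and 80.3 CPM in those labelled Tet2KO. Its log2 fold change was 0.57 ± 0.044 (SE), adjusted p 6.4e-09, and its signalling partner Il6st rose by 0.34. Il10ra rose by 0.43, Il4ra by 0.40, the tumor necrosis factor receptors Tnfrsf1a and Tnfrsf1b by 0.30 and 0.30, and Kit itself by 0.11. The receptor for granulocyte-macrophage colony-stimulating factor was split. Its alpha chain Csf2ra fell by 0.53, from 53.1 to 36.6 CPM, while its beta chain Csf2rb rose by 0.29. Csf2rb2, which is 95.1% identical to Csf2rb over 3134 bp, rose by 0.64. Ifngr1, which binds interferon gamma, fell by 0.25 and its partner Ifngr2 rose by 0.23.

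Downstream of these receptors, 11 of 28 genes of the JAK-STAT pathway and its feedback inhibitors rose and none fell, with a median of 0.13. Jak3 rose by 0.27, Stat3 by 0.19 and the adaptor Sh2b3 (Lnk), which restrains Kit signals, by 0.27. The feedback inhibitor Socs3 rose by 0.92 from a low level of 1.89 CPM. Of 26 genes of the Id, BMP and TGF-beta pathway 15 rose and none fell. The type II BMP receptor Bmpr2 stood at 33.5, 34.8 and 35.4 CPM in the libraries labelled WT and 46.7, 49.4 and 47.1 CPM in those labelled Tet2KO, a log2 fold change of 0.47 ± 0.044 (SE), and the activin receptor Acvr1b rose by 0.43, Tgfbr1 by 0.26 and Smad4 by 0.22. Among adhesion and homing genes 12 of 24 rose and 1, Vcam1, fell. Cxcr4, which retains progenitors in the marrow, rose by 0.33 ± 0.03 on the log2 scale, from 136 to 171 CPM, and the integrin gene Itgb7 rose by 0.38.

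Large enzymes that modify enhancers rose together. Of 27 tested histone methyltransferases of the Kmt2 family, their partners and enhancer coactivators, 17 rose and 4 fell, with a median of 0.23; 8 were called higher beyond 1.2-fold, and 8 in the fit with summed libraries. Kmt2d (ENSMUSG00000048154.17, chromosome 15, 98831669 to 98871204), which methylates histone H3 at enhancers, stood at 219, 198 and 196 CPM in the libraries labelled WT and 313, 315 and 317 CPM in those labelled Tet2KO. Setd1b, which does so at promoters, stood at 29.2, 22.7 and 24.2 CPM in the libraries labelled WT and 36.3, 38.2 and 39.7 CPM in those labelled Tet2KO. In neither gene did the groups overlap. The log2 fold changes were 0.62 ± 0.043 (SE) and 0.59 ± 0.084, with adjusted p of 1.24e-09 and 2.17e-05. Kmt2a, Kmt2e and Kmt2c rose by 0.49, 0.46 and 0.34, the histone acetyltransferases Ep300 and Crebbp by 0.43 and 0.38 and the coactivator Ncoa6 by 0.41. Psip1, which tethers Kmt2a to chromatin, fell by 0.18 and the demethylase Kdm6a by 0.18, where the part of sex was not tested. The other 2 that fell were the core subunits Dpy30 and Ash2l, by 0.16 and 0.11. Dpy30 was not called without WT replicate 3 or Tet2KO replicate 3 (edgeR adjusted p up to 0.0765), nor Ash2l without WT replicate 1, WT replicate 2, Tet2KO replicate 2 or Tet2KO replicate 3 (up to 0.154).

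These genes are long, and length moved with direction over all genes. Tested genes were put into 4 equal bins of exonic length. In the longest (6325 bp or more) 1087 rose and 486 fell, and in the shortest (2369 bp or less) 296 rose and 552 fell. The median exonic length of the Kmt2 and coactivator list was 8753 bp, against 3974 bp over all genes. Less the median of their length bin, the members' median log2 fold change was 0.18 in place of 0.23, that of stem cell genes 0.27 in place of 0.29, and that of red cell regulators and membrane genes -0.77 in place of -0.80. The annotated type of a gene moved with direction too. Of 793 tested loci of type TEC, provisional models that annotators have yet to verify, 195 rose and 10 fell, and of 94 sense-intronic loci 24 rose and 1 fell. Of 30 tested small nuclear RNA genes none rose and 10 fell, with a median of -0.72, and of 62 small nucleolar RNA genes 3 rose and 13 fell. The part of RNA quality or of unspliced RNA in these results was not tested.

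**Figure D4:**
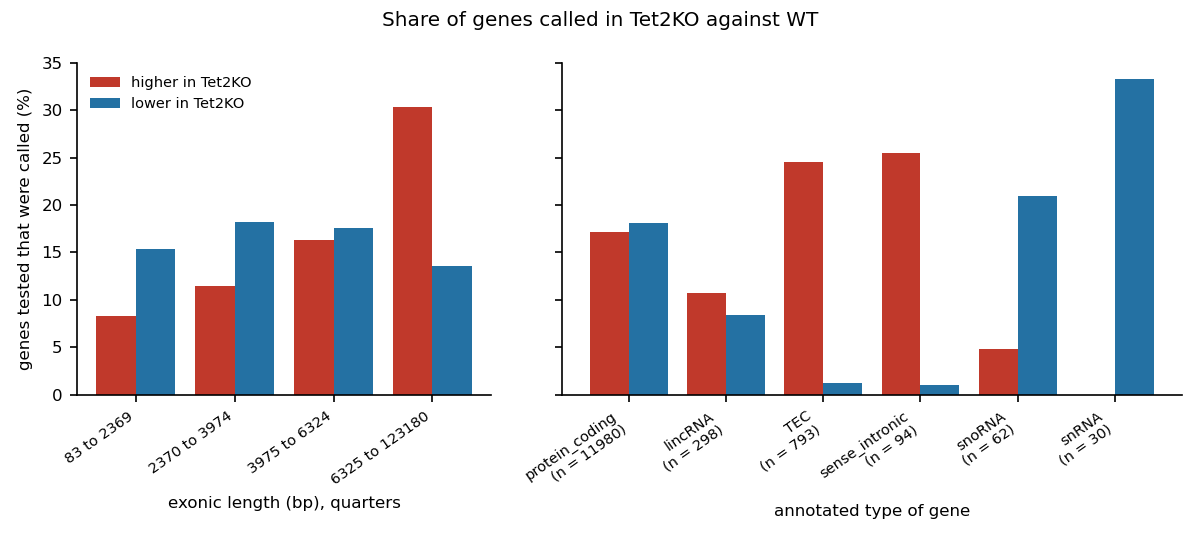
Percent of tested genes called higher (red) and lower (blue) in Tet2KO against WT, in 4 equal bins of exonic length in bp (left) and by annotated type of gene (right, with the number tested). The share called higher goes from 8.25% in the shortest bin to 30.3% in the longest, and TEC loci stand at 24.6% higher and 1.26% lower.

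Enzymes and readers of DNA methylation rose in part. Of 24 tested 11 rose and 2 fell, with a median of 0.091. Besides Tet2, its relatives Tet3 and Tet1 rose, to 182 and 42.1 CPM from 136 and 33.1, as did the methyl-CpG-binding family members Mbd5 and Mbd6, by 0.43 and 0.43. The methyltransferase Dnmt3a rose by 0.21, while Dnmt1, which copies methylation at replication, had a log2 fold change of 0.043 and an adjusted p of 0.203. Of 34 Polycomb genes 11 rose and 1 fell, a count of 11 that was 6 without WT replicate 2 or WT replicate 3 and 7 without Tet2KO replicate 1 or Tet2KO replicate 3; the reader Cbx8 rose by 0.57, and Ezh2, the methyltransferase subunit, had a log2 fold change of 0.087 (adjusted p 0.0846). Of 33 genes that drive clonal hematopoiesis when mutated 9 rose and 3 fell. Cbl (ENSMUSG00000034342.9, chromosome 9, 44142976 to 44234049), a ubiquitin ligase that turns over Kit and other receptors, stood at 129, 115 and 116 CPM in the libraries labelled WT and 169.8, 176 and 175 CPM in those labelled Tet2KO, a log2 fold change of 0.53 ± 0.036 (SE), adjusted p 9.22e-10. The 3 that fell were Srsf2, U2af1 and Npm1, by 0.21, 0.16 and 0.15, the last 2 of which have near-identical copies.

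**Figure D5:**
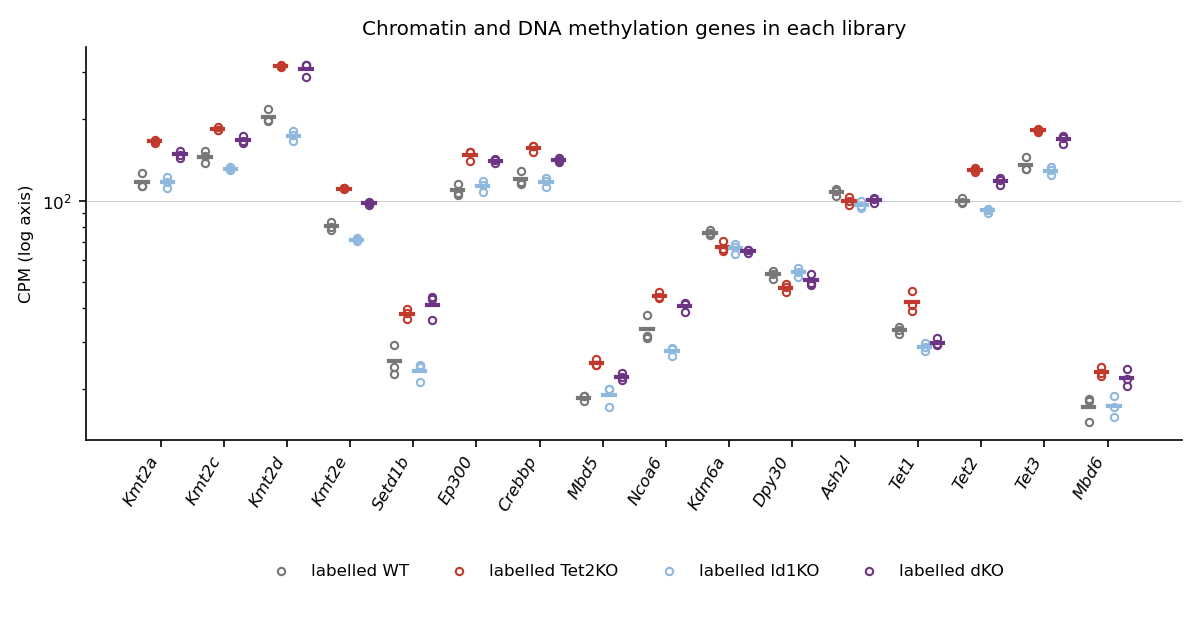
CPM (log axis) of 16 chromatin and DNA methylation genes in each library labelled WT, Tet2KO, Id1KO and dKO; circles are libraries and bars are means of 3. Kmt2d goes from 205 CPM in WT to 315 in Tet2KO and from 174 in Id1KO to 308 in dKO.

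Transcripts for DNA replication fell slightly. Of 60 tested 28 fell and 3 rose, with a median of -0.088, and 1 was called lower beyond 1.2-fold. The count of 3 was 1 without WT replicate 3 or Tet2KO replicate 2 and 0 without Tet2KO replicate 1. Ccne1, the cyclin that starts replication, fell by 0.45 from 40.1 CPM and the clamp loader Rfc4 by 0.31. Mitosis genes were mixed, with 7 of 53 higher and 9 lower: Mki67 rose by 0.16 and Tubb4b, a tubulin, fell by 0.27. The D-type cyclins diverged. Ccnd1 (ENSMUSG00000070348.5, chromosome 7, 144929931 to 144939925) stood at 34.3, 31.7 and 35.02 CPM in the libraries labelled WT and 16.5, 17.2 and 15.6 CPM in those labelled Tet2KO, with no overlap, a log2 fold change of -1.04 ± 0.067 (SE) and an adjusted p of 5.01e-10, while Ccnd2 and Cdk6, a partner kinase of D-type cyclins, rose by 0.22 and 0.24.

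Of 78 DNA repair genes 17 fell and 5 rose, a share called of 28.2% beside 32.8% of all genes; the count of 17 was 8 without WT replicate 2, 9 without Tet2KO replicate 2 and 11 without Tet2KO replicate 3. Xrcc5 (Ku80), which binds broken DNA ends, fell by 0.49, from 26.1 to 18.6 CPM. Fancc, of the Fanconi pathway, rose by 0.29. Of 29 p53 pathway genes 4 rose and 3 fell, which is no more than the background. Of the Bcl2 family and caspases 4 of 24 rose and 5 fell, a count of 5 that was 3 without WT replicate 1 and 2 without WT replicate 3 or Tet2KO replicate 3. Pmaip1 (Noxa), which neutralises Mcl1, fell by 0.99, from 9.03 to 4.55 CPM. Bcl2 rose by 0.26.

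Several lists of protein synthesis, folding and turnover had many members that fell by small amounts. Of 79 cytosolic ribosomal protein genes 33 fell and none rose, with a median of -0.069 and no member beyond 1.2-fold by test. That count was 11 without WT replicate 2, 19 without WT replicate 3, 8 without Tet2KO replicate 2 and 13 without Tet2KO replicate 3. Of 78 mitochondrial ribosomal protein genes 43 fell and none rose, with a median of -0.15; 1, Mrpl52 at -0.44, was called beyond 1.2-fold. Of 38 aminoacyl-tRNA synthetases and targets of the stress factor Atf4, 21 fell and none rose. Asns (ENSMUSG00000029752.12, chromosome 6, 7675169 to 7693254), asparagine synthetase, stood at 63.2, 72.1 and 66.8 CPM in the libraries labelled WT and 43.9, 41.99 and 41.2 CPM in those labelled Tet2KO, a log2 fold change of -0.67 ± 0.053 (SE), adjusted p 9.22e-09. Hars fell by 0.34 and Atf4 itself by 0.13.

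Of 39 chaperones and translocon genes of the endoplasmic reticulum 11 fell and 5 rose, with a median of -0.033. The count of 11 was 6 or 7 without any 1 of WT replicate 2, WT replicate 3 and the 3 Tet2KO replicates, and the count of 5 was 3 without Tet2KO replicate 3.

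The proteasome fell in 28 of 40 members with none higher, a median of -0.13 and none beyond 1.2-fold by test; Psmc1, an ATPase subunit, went from 149 to 128 CPM. Of 36 tested heat shock chaperones and their factors 21 fell and 3 rose. Those that fell included Hspa8 from 3073 to 2598 CPM, Hsp90aa1 from 1623 to 1371, Hspd1 by 0.28 and all 8 subunits of the chaperonin that folds actin and tubulin (Tcp1 by 0.18, and 7 Cct genes such as Cct6a by 0.20). None of the 21 was called beyond 1.2-fold. The stress-inducible Hspa1a stood at 12.2, 12.9 and 12.3 CPM in the libraries labelled WT and 45.3, 44.3 and 41.9 CPM in those labelled Tet2KO, with no overlap. It rose by 1.81 ± 0.058 on the log2 scale and its copy Hspa1b by 1.69 ± 0.066; the copies are 99.2% identical over 2201 bp. Hsf1, the factor that induces both, had a log2 fold change of -0.053 (adjusted p 0.418).

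The promoters of Hspa1a, which rose, and of Hspe1, which fell by 0.21, are shown side by side because both hold GAANNTTC, part of the heat shock element that Hsf1 binds. The windows are the 250 bases before the start (RefSeq, GRCm38.p6), at chr17:34972157-34972406 on the minus strand and chr1:55087898-55088147 on the plus strand. Capitals mark GAANNTTC and, in Hspa1a, CCACACCC, a site for factors of the Klf family.
Hspa1a: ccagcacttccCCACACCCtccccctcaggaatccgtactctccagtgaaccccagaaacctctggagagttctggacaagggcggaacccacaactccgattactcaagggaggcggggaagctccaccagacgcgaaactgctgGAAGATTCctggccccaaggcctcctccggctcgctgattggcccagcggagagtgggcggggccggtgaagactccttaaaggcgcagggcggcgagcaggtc
Hspe1: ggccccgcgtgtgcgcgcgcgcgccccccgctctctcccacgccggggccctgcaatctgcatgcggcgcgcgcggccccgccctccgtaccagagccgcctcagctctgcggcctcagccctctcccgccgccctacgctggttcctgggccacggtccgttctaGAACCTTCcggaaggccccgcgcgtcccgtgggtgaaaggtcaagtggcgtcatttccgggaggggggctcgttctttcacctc
GAANNTTC, which reads the same on both strands, was in 5 of 23 promoters of chaperone genes that fell (21.7%), in 2 of 3 of those that rose and in 5.04% of the promoters of genes tested. The windows of Hspe1 and Hspd1, which lie head to head, overlap and hold the same site, so the 5 count it more than once. The 2 that rose are Hspa1a and Hspa1b, whose windows are near identical and hold the same letters. CCACACCC on either strand was in 3.5% of the promoters of genes tested.

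Mitochondrial respiration followed. Of 75 nuclear genes of the respiratory chain 41 fell and none rose, with a median of -0.11 and none beyond 1.2-fold by test; the count was 26 without Tet2KO replicate 2. Cycs (cytochrome c), which shares sequence with 13 other tested genes, fell by 0.32 and Ndufb9 by 0.29. Of 15 genes encoded in mitochondrial DNA 9 fell, mt-Nd1 for example from 690.0 to 532 CPM. Mitochondrial genes made up 2.27%, 1.71% and 1.77% of all counts in the libraries labelled WT and 1.61%, 1.7% and 1.61% in those labelled Tet2KO. The highest share was that of WT replicate 1.

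In other metabolic lists, 12 of 33 sterol and fatty acid genes fell and 3 rose, a count of 12 that was 7 without Tet2KO replicate 3. Sqle, squalene epoxidase, fell by 0.41 and Acss2 by 0.44, while Hmgcs1 rose by 0.19. In glycolysis and hypoxia genes (6 of 31 higher, 5 lower) Pfkm fell by 0.49, Vegfa by 0.47 and the lactate transporter Slc16a1 by 0.31, and Pkm rose by 0.18. The folate enzyme Mthfd1 had a log2 fold change of -0.41 ± 0.029 (SE), with means of 292 CPM in WT and 219 in Tet2KO, and Odc1, the first enzyme of polyamine synthesis, fell by 0.31. Of 40 lysosomal genes 8 rose and 4 fell (30% called), with a median of -0.00525. The count of 8 was 5 without WT replicate 3, and the count of 4 was 2 without WT replicate 3 or Tet2KO replicate 3. Psap, the precursor of the saposins, rose from 548 to 709.9 CPM.

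Inflammatory pathways showed no common direction. Of 45 interferon response genes 8 rose and 7 fell, close to the shares over all genes, with a median of -0.036. The antiviral membrane proteins Ifitm1 and Ifitm3 rose, Ifitm1 (ENSMUSG00000025491.14, chromosome 7, 140967221 to 140969825) standing at 23.02, 20.8 and 22.1 CPM in the libraries labelled WT and 44.0, 46.9 and 46.1 CPM in those labelled Tet2KO and Ifitm3 going from 44.2 to 60.5 CPM, whereas Samd9l fell by 0.30. The count of 7 that fell was 4 without WT replicate 1 or WT replicate 2 and 3 without Tet2KO replicate 1 or Tet2KO replicate 2. In the NF-kB list 6 of 35 rose and 5 fell: Rel (ENSMUSG00000020275.9, chromosome 11, 23736847 to 23770970), a subunit of NF-kB, stood at 17.5, 18.3 and 17.8 CPM in the libraries labelled WT and 26.9, 26.6 and 28.1 CPM in those labelled Tet2KO, a log2 fold change of 0.61 ± 0.053 (SE), adjusted p 3.7e-08, and Tnfaip3 (A20), a feedback inhibitor, fell by 0.29. Among 31 immediate early genes 9 fell and 7 rose. Jun, Fosb and Dusp1 fell by 0.25, 0.31 and 0.31 and Dusp6, a phosphatase induced by ERK signals, by 0.67. Of 27 genes of antigen presentation 8 rose and none fell, with Cd74 at 0.29.

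Among 25 tested long noncoding RNAs 5 rose and 10 fell. Hosts of small nucleolar RNAs were among those that fell: Gas5 from 746 to 613 CPM, Snhg1 by 0.40, Snhg5 by 0.38, Snhg8 by 0.34 and Snhg12 by 0.33. Mir17hg, the host of the miR-17 to miR-92a cluster, fell by 0.53. Kcnq1ot1, an imprinted antisense transcript, rose from 241 to 329 CPM. Of 69 splicing factors 23 fell and 6 rose. The SR proteins Srsf10, Srsf3 and Srsf7 fell by 0.28, 0.16 and 0.18, and Srrm2, a long scaffold of nuclear speckles, rose by 0.33.

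Within 10 Mb of Tet2 on chromosome 3, 13 of 85 tested genes rose and 12 fell (29.4% called), beside 31.4% over the whole chromosome.

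The same label was then compared where Id1 is lost by label. Between dKO and Id1KO 2762 genes were called, 19.3% of those tested (10.6% higher and 8.7% lower in dKO), and the contrast shares no library with Tet2KO against WT. The 2 contrasts called 1547 genes in common, 32.9% of the first and 56% of the second, and 1350 of them in the same direction. Of 6 tested sex chromosome markers, 1 rose and 2 fell in dKO against Id1KO, and 2 were called in the same direction in both contrasts. The part of sex in the shared calls was not tested. The difference between the 2 effects was called for 2078 genes (14.5%), of which 1574 were among the 4699. For red cell genes it was called for 29 of the 35 regulators and membrane genes, 12 of 18 heme genes and all 4 globin genes. In dKO against Id1KO, 4 of the 35 rose and 9 fell, with a median of -0.075. Epor stood at 28.1, 26.6 and 26.4 CPM in the libraries labelled Id1KO and 25.7, 22.5 and 23.6 in those labelled dKO, values that sit near those of WT. The difference of the 2 log2 fold changes was 0.73 ± 0.086 (SE) with an adjusted p of 7.43e-06.

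Among lists with many members that fell in Tet2KO against WT, the difference was called for unlike shares, beside 14.5% of all genes. Medians in dKO against Id1KO were -0.00162 for the proteasome, -0.00258 for mitochondrial ribosomal proteins, 0.00849 for tRNA synthetases with Atf4 targets and 0.018 for replication, and the difference was called for 14 of 40, 14 of 78, 15 of 38 and 16 of 60 members. It was called for 1 of 79 cytosolic ribosomal protein genes, of which 40 fell in dKO against Id1KO (median -0.079), and for 5 of 75 nuclear respiratory chain genes. Stem cell genes had a median of -0.054 (4 of 30 higher, 9 lower), and the difference was called for 12 of 30. Meis1 stood at 0.032 and Hlf at -0.15 on the log2 scale in dKO against Id1KO. Monocyte genes had a median of 0.34 (16 of 24 higher, 2 lower), lymphoid genes one of 0.30 (8 of 27 higher, 1 lower), and of the Kmt2 and coactivator list 13 of 27 rose and none fell. TEC loci again rose, in 209 of 793 cases, with 5 lower. Genes that changed in the same direction in both contrasts, with the difference not called, included Hoxa9 (-0.92 in dKO against Id1KO), Ccnd1 (-0.92), Csf2ra (-0.53), Il6ra (0.48), Cbl (0.56), Rel (0.53), Hmga2 (1.25) and Psap (0.34). A difference that was not called does not show that the effects were equal.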

How the data were processed

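Total RNA libraries of sorted donor LK cells were made with the RNeasy Micro kit and the Illumina Stranded Total RNA Prep with Ribo-Zero Plus, per the labels' protocols. The authors deposited estimated counts per gene. STAR, RSEM and mm10 are named, per the submitters' processing notes, which give no role or version here. The deposited estimated counts were rounded to whole numbers. Gene models came from GENCODE M21 (GRCm38), whose IDs and symbols matched all 55450 genes.

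Genes passing edgeR's filterByExpr (minimum count 10) were fitted over all 12 libraries with 1 mean per genotype, so that the groups share 1 estimate of the spread. TMM scaling and edgeR's quasi-likelihood test (edgeR 4.0.16, limma 3.58.1, R 4.3.3) were used, with Benjamini-Hochberg adjustment over all genes tested and a threshold of 0.05. Standard errors come from the F statistic. The script was tested on simulated data. Alternatives were 3 other scalings, DESeq2 1.42.0, other filters, only the 6 libraries, a replicate block, a minimum fold, a threshold of 0.01, equal depth, summed libraries and leaving out each library. Copies were searched with blastn 2.17.0; tables and figures were made with Python 3.11.15, pandas 2.3.3 and matplotlib 3.10.9.

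No 2 libraries labelled WT, or labelled Tet2KO, matched within sampling noise, and each was counted as 1 sample; repeat preparations of 1 cell sample could differ as much. The median over genes of the chi-square of 2 libraries, relative to the median that sampling alone gives, was 1.181 to 1.618 within WT or Tet2KO and 4.099 to 4.795 between them.

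Members and lists were chosen with earlier results of these data known. Named genes were Tet2, Id1, the 12 genes that rose most and the 12 that fell most, on the log2 scale, out of those called with groups that did not overlap, at least 5 CPM in WT or Tet2KO and a name other than a Gm or Rik model name, the 6 in each direction with the smallest p among genes of at least 20 CPM, and from each list the 2 highest, the 2 lowest and the 2 most abundant. Not all of these are named, some genes are not reported here, and other genes named were chosen after their values were seen. The list counts include all members tested.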

Additional observations from a re-analysis of the deposited data

Results flagged for a closer look

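The effect of the Tet2 label in dKO against Id1KO was set against that in Tet2KO against WT, and the difference (the first less the second, on the log2 scale) was called by edgeR's test for 2078 genes. The genes below are those named in the report for which it was called. A positive difference means that the effect was higher, or less negative, where Id1 is lost by label. The values carry no explanation here. Of these 117 genes, 26 were no longer called in at least 1 fit that left out 1 library (adjusted p up to 0.148 by edgeR's test): Ahnak, Ash2l, Csf2rb, Dnmt3a, Gata2, Hsp90aa1, Hspe1, Il6st, Jun, Kmt2d, Mecom, Mgl2, Mpo, Mrpl52, Nqo1, Sh2b3, Slc25a37, Snhg1, Snhg8, Srxn1, Tcp1, Tet1, Thbs1, U2af1, Vegfa and Xpo7.

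Red cell, heme and globin genes with a positive difference included 1.85 for Hbb-bt, 1.75 for Hbb-bs, 1.68 for Hba-a2, 1.48 for Hba-a1, 1.07 for Sptb, 1.02 for Add2, 1.01 for Ank1, 1.0 for Rhag, 0.93 for Ermap, 0.81 for Rhd, 0.79 for Kel, 0.73 for Epor, 0.72 for Car2 and 0.70 for Klf1. Red cell, heme and globin genes with a positive difference also included 0.68 for Blvrb, 0.62 for Gata1, 0.61 for Cpox, 0.54 for Car1, 0.36 for Fech, 0.29 for Zfpm1 and 0.20 for Alas1. Red cell, heme and globin genes with a negative difference included -0.19 for Xpo7 and -0.16 for Slc25a37. Stem cell, Hox and platelet genes with a positive difference included 0.70 for Gfi1b, 0.60 for Thbs1 and 0.44 for Mllt3. Stem cell, Hox and platelet genes with a negative difference included -0.64 for Mecom, -0.47 for Hlf, -0.37 for Itgb3 and -0.34 for Meis1. Granulocyte, monocyte, dendritic cell, mast cell and lymphoid genes with a positive difference included 0.75 for Klf2, 0.56 for Zbtb46, 0.47 for Cx3cr1, 0.39 for Slc40a1, 0.37 for Irf8, 0.33 for F13a1 and 0.17 for Zeb2. Granulocyte, monocyte, dendritic cell, mast cell and lymphoid genes with a negative difference included -0.67 for Mgl2, -0.66 for Prg2, -0.61 for Epx, -0.57 for Fcnb, -0.52 for Anxa1, -0.44 for Vcam1, -0.30 for Flt3, -0.20 for Gata2, -0.17 for Ly6c2 and -0.16 for Mpo. Receptor, signalling, inflammatory and immediate early genes with a positive difference included 0.49 for Dusp6, 0.19 for Jun, 0.15 for Ifngr1 and 0.15 for Il6st. Receptor, signalling, inflammatory and immediate early genes with a negative difference included -1.34 for Socs3, -0.70 for Ifitm1, -0.39 for Cd74, -0.36 for Tgfbr1, -0.36 for Tnfaip3, -0.30 for Il4ra, -0.30 for Jak3, -0.28 for Tnfrsf1a, -0.27 for Stat3, -0.21 for Csf2rb, -0.20 for Sh2b3 and -0.20 for Cxcr4. Chaperone, protein synthesis, proteasome and mitochondrial genes with a positive difference included 0.41 for Asns, 0.31 for Hspd1, 0.30 for Hars, 0.26 for Mrpl52, 0.19 for Psmc1, 0.17 for Cct6a, 0.15 for Hspe1, 0.15 for Tcp1 and 0.13 for Hsp90aa1. Chaperone, protein synthesis, proteasome and mitochondrial genes with a negative difference included -2.92 for Hspa1a and -2.61 for Hspa1b. Other genes with a positive difference included 2.63 for Xist, 1.34 for Ctse, 1.32 for Ntn4, 0.99 for Mt2, 0.97 for Pmaip1, 0.77 for C1qtnf12, 0.64 for Srxn1, 0.56 for Nqo1, 0.49 for Pfkm, 0.44 for Acss2, 0.44 for Mthfd1, 0.43 for Glrx5, 0.39 for Mir17hg and 0.38 for Sqle. Other genes with a positive difference also included 0.37 for Ccne1, 0.33 for Rfc4, 0.32 for Prdx2, 0.29 for Tubb4b, 0.29 for Snhg5, 0.25 for Snhg12, 0.23 for Kcnq1ot1, 0.23 for Snhg8, 0.21 for Slc16a1, 0.20 for Odc1, 0.20 for Kmt2d, 0.19 for Npm1, 0.19 for Srsf10 and 0.18 for Srsf2. Other genes with a positive difference also included 0.17 for Snhg1, 0.16 for Ash2l and 0.13 for U2af1. Other genes with a negative difference included -1.40 for Id1, -1.03 for Ddx3y, -0.82 for Myof, -0.70 for Lbp, -0.57 for Uty, -0.56 for Acvr1b, -0.54 for Cbx8, -0.52 for Kdm5d, -0.30 for Tet1, -0.26 for Vegfa, -0.16 for Dnmt3a and -0.13 for Ahnak.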

How the results depend on the processing

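The number of genes called in Tet2KO against WT depended on what was taken as a replicate and on the size of change asked for. With the libraries of a genotype summed and a common Tet2 effect fitted over both Id1 backgrounds it was 232 (165 higher, 67 lower, 71.1% higher beside 50.6%), and 2229 genes had an unadjusted p under 0.05. Against a 1.2-fold change it was 769 (414 higher, 355 lower), and at a threshold of 0.01 it was 3122, with 1519 lower. The summed fit has fewer samples and assumes an equal effect in both backgrounds. In it 156 of the 205 genes named as called were lost, and 3 reversed: F13a1 (0.053), Hba-a2 (0.14) and Hbb-bs (0.15). The difference between backgrounds was called for 1342 genes by DESeq2, 237 against a 1.2-fold change and 972 at a threshold of 0.01. Leaving out 1 library gave 3808 to 4964 genes called in Tet2KO against WT (2037 to 2593 higher, 1771 to 2385 lower) and 1582 to 2161 for the difference. In at least 1 of these fits 4 of the 205 genes named as called in Tet2KO against WT were lost, and 26 of the 117 named for the difference.

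With the 3 libraries matched by title suffix (a replicate block) 4523 genes were called, 2291 higher and 2232 lower, and 1871 for the difference. Deviations of same-numbered libraries labelled WT and Tet2KO correlated at 0.0222, 0.078 and 0.0233, and those of other pairs at -0.0403 to 0.0176. Whether same-numbered libraries were paired cannot be told from 3 libraries a group. The other scalings, filters, DESeq2, equal depth and the 6 libraries alone gave 3604 to 4951 genes. The biological coefficient of variation of 0.0305 reflects the libraries sequenced, and genes under about 1 CPM rest on few counts.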
